A study of Mus musculus with 6 samples.

Results

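The regions described here are stretches of open chromatin that NMuMG cells kept after BRM014 but that were called over at most 0.7 times their former width. NMuMG, labelled wild type, is an epithelial line established from mammary gland of a normal mouse, and BRM014 inhibits the 2 alternative ATPases, Brg1 and Brm, of the SWI/SNF remodelling complexes. The assay was ATAC-seq, where the transposase Tn5 inserts adapters into exposed DNA. The groups were cells given the vehicle DMSO, cells given BRM014 for 6 h and cells given BRM014 for 30 h, with 2 biological replicates each. All were grown in medium with serum and insulin. The authors deposited 1 peak list per group, made from both replicates, so no value here has a replicate spread and no treatment was tested. The name of the DMSO list gives 30 h, and no vehicle list of 6 h was analysed here. The text on library making that comes with the samples also speaks of TGFβ, which no sample label carries.

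Peak-calling entries that overlap were merged into regions, and a DMSO region was called matched when it overlapped exactly 1 region at 6 h and exactly 1 at 30 h, neither of which touched another DMSO region. Of 42310 DMSO regions, 21888 were matched, and 1210 of these were at most 0.7 times as wide at 6 h and also at 30 h. These 1210 narrowed regions are 5.53% of the matched regions. They were chosen by their widths in all 3 lists, so every width below is a description. Measures that compare a treated list with DMSO at the same regions are tied to that choice and are given the same way. Intervals in parentheses are 95% intervals, Wilson for shares and from binomial order statistics for medians. These intervals hold counting error alone and take each region as independent of the others.

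SWI/SNF complexes use ATP to slide or evict nucleosomes, and they keep many enhancers open in differentiated cells. An ATAC-seq region is as wide as the run of DNA over which transposition passes the caller's cutoff. A wide region can hold several summits, the points of locally highest signal, which often mark separate open sites beside nucleosomes. A region can therefore become narrower by the end of a flanking site or by a lower signal across its whole length. Gene names are not given, because no annotation of the mouse build mm9 used by the lists was at hand.

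The background of narrowing differed between the times. At 6 h 15.6% of matched regions (3410) were at most 0.7 times as wide as in DMSO, and at 30 h 8.93% (1955). Regions at least 1.43 times as wide were fewer, 1.73% at 6 h, 2.48% at 30 h and 0.758% (166 regions) at both times. Judged by the lowest background signal in each list, depth relative to DMSO was 63.0% at 6 h and 80.7% at 30 h. Between the treated lists, where the depth of the 6 h list was 78.0% of that at 30 h, 9.07% of 23507 matched 30 h regions were at most 0.7 times as wide at 6 h and 3.02% at least 1.43 times as wide. The first share is close to the 8.93% at 30 h against DMSO. The part of depth in the number of narrowed regions was not tested.

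**Figure D1:**
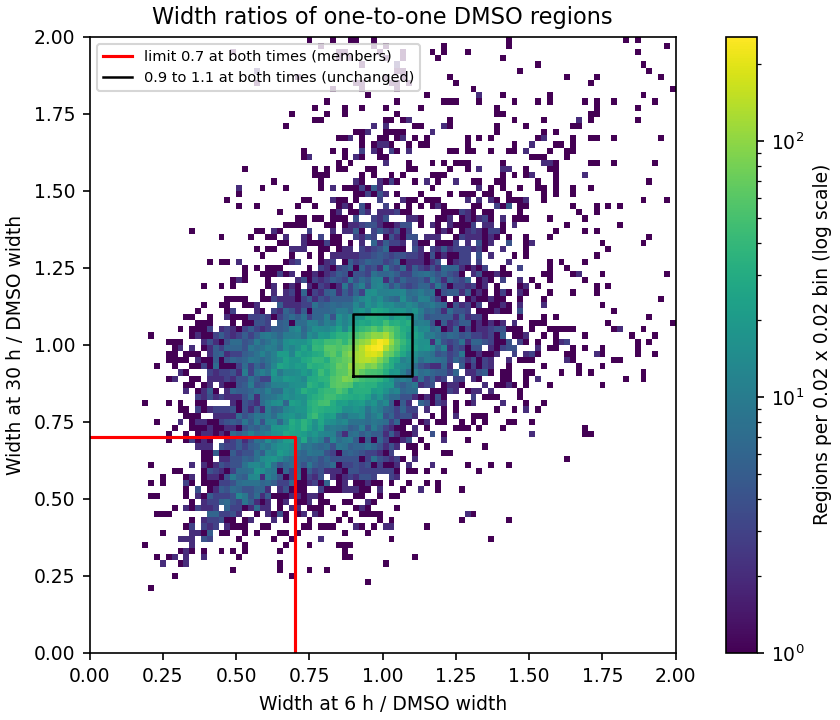
Width of each matched DMSO region at 6 h (x axis) and at 30 h (y axis) divided by its DMSO width, as the number of regions per bin on a log colour scale. The red lines bound the 1210 narrowed regions and the black square the 6819 regions of unchanged width; 107 regions with a ratio of 2 or more at either time are off the axes.

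In DMSO the narrowed regions were slightly wider than regions that kept their width, with a lower -log10 q and pileup but not a lower fold enrichment. Their median DMSO width was 878 bp (860 to 894), with quartiles of 716 and 1090 bp, and it was 468 bp at 6 h (457 to 480) and 497 bp at 30 h (484 to 511). The 6819 matched regions whose ratio stayed between 0.9 and 1.1 at both times, called unchanged regions below, had a median DMSO width of 837 bp (828 to 844). The authors' fold enrichment in DMSO had a median of 16.2 in narrowed and 15.6 in unchanged regions, and the authors' -log10 q one of 158 and 202. The median DMSO pileup, the number of reads over the summit, was 195 and 259. Within their own lists the narrowed regions had a median -log10 q of 46.1 at 6 h and 81.0 at 30 h, against 105 and 163 for unchanged regions. Narrowed regions made up 2.43% of the narrowest quartile of matched regions, 186 to 611 bp (2.05 to 2.87%), and 7.66% of the widest, 1000 to 2386 bp (6.98 to 8.39%). The least width of a matched region was 171 bp at 6 h and 173 bp at 30 h, which leaves narrow DMSO regions less room to reach the limit.

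The median width ratio was 0.571 at 6 h and 0.593 at 30 h, and the smallest ratios were 0.198 and 0.215. Just inside the limit, on the larger of both ratios, were regions at chr7:128189140-128189689 (550 bp, then 385 bp at 6 h and 369 bp at 30 h), chrX:10578110-10578819 (710, 497 and 378 bp) and chr1:183061965-183062617 (653, 457 and 418 bp). Just outside it were regions at chr9:45820422-45821415 (994, 641 and 696 bp), chr2:79406246-79407036 (791, 548 and 554 bp) and chrX:166371133-166371680 (548, 384 and 340 bp). The limit of 0.7 thus parts regions of nearly the same ratio.

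The 10 narrowed regions of highest DMSO -log10 q show how the intervals changed. Pileup here is the number of reads over the summit, worked out from the authors' fold enrichment and p-value, and the expected pileup is the DMSO pileup scaled to the depth of the treated list. The first, at chr19:11059829-11060922, was 1094 bp wide in DMSO, 696 bp at 6 h and 668 bp at 30 h. Its left end moved in by 419 bp at 6 h and 414 bp at 30 h, while its right end moved out by 21 bp and in by 12 bp. It had a weaker left summit with a DMSO pileup of 208 and a main summit with 1019, and the left one lay outside both treated intervals. The main summit stayed within 34 bp of its DMSO position, with a pileup of 313 at 6 h and 295 at 30 h, 48.8% and 35.9% of that expected.

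The second, at chr19:30016765-30017464, had a single summit and was trimmed from both ends, from 700 bp to 396 bp at 6 h and 475 bp at 30 h. Its pileup was 1035 in DMSO, 180 at 6 h and 351 at 30 h, 27.6% and 42.0% of that expected. The third, also on chromosome 19, from 21727145 to 21728315, kept its left end to the base in all 3 lists and ended 400 bp earlier at 6 h and 395 bp earlier at 30 h. Here the main summit was not below the expected height: its pileup of 920 in DMSO was followed by 711 at 6 h and 800 at 30 h, 123% and 108% of that expected. What was no longer called were the 2 summits on its right, with DMSO pileups of 93 and 78. The 3 regions differ in form, as the third kept its main summit at full height beside a flank no longer called, while the second had a far lower main summit and both ends drawn in.

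**Figure D2:**
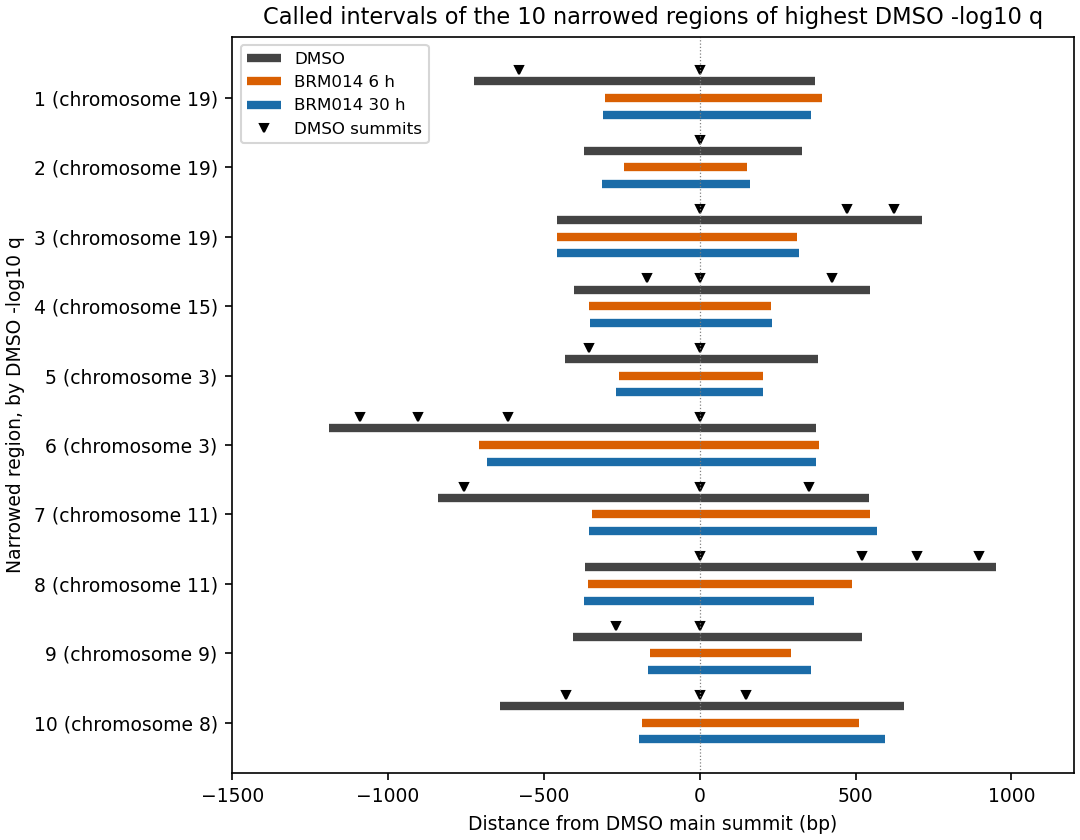
Called intervals of the 10 narrowed regions of highest DMSO -log10 q in DMSO (grey), at 6 h (orange) and at 30 h (blue), placed by distance in bp from the DMSO main summit; triangles are DMSO summits. Every treated interval holds the DMSO main summit, and 9 of the 10 regions have a DMSO summit outside the 6 h interval.

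The other 7 are given more briefly. The region at chr15:66961335-66962284 went from 950 bp to 584 bp at both times, its right summit of pileup 126 lay outside, and its highest pileup of 982 was 309 at 6 h and 458 at 30 h. On chromosome 3, the region from 141076226 to 141077037 was trimmed by 163 to 178 bp at either end, and its main summit stood at 27.3% and 22.5% of the expected pileup. The other on that chromosome, from 75302516 to 75304077, was trimmed on the left by 480 bp at 6 h and 506 bp at 30 h, with its main summit at 62.8% and 89.6%. Chromosome 11 also gave 2. In the region from 20232086 to 20233469 a left summit of pileup 81 was left out and main summits stood at 84.2% and 96.5% of the expected pileup. In that from 43494931 to 43496251 the right-hand 3 summits, of pileups 59, 64 and 56, lay outside while the main summit stood at 133% and 119%. The last were at chr8:10664366-10665660, at 60.1% and 66.1%, and at chr9:17479765-17480692. This region on chromosome 9 had a DMSO pileup of 654, against 44 at 6 h and 77 at 30 h, 10.7% and 14.6% of the expected, and was trimmed from both ends, by 245 and 227 bp at 6 h.

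Across all 1210, the narrowed interval stayed on the DMSO main summit. That summit lay inside the 6 h region in 99.3% (1202 regions; 98.7 to 99.7%) and inside the 30 h region in 99.4% (1203; 98.8 to 99.7%). Over all matched regions these shares were 99.8% and 99.9%, and over unchanged regions 100%, so the main summit was kept nearly everywhere and not more often in narrowed regions. The main summit of the treated region was a median of 12.0 bp away from it at 6 h (11 to 12) and 10.0 bp at 30 h (9 to 10). In unchanged regions these distances were 12 and 9 bp. The main summit moved by over 100 bp in 4.38% of narrowed regions at 6 h (3.36 to 5.68%) and in 7.86% of unchanged regions (7.25 to 8.52%), and at 30 h in 3.31% and 6.57%. Narrowed regions thus had their strongest point where it was in DMSO, to within about the same median distance as regions that kept their width. A narrower interval leaves less room for a move: the median 6 h width was 468 bp in narrowed and 820 bp in unchanged regions. The lower shares moved by over 100 bp are therefore tied to the choice by width.

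The trimmed bases, those called in DMSO but not after treatment, lay mostly at 1 end. At 6 h 60.4% of narrowed regions (57.6 to 63.1%) had at least 80% of their net loss at 1 end, and at 30 h 63.3% (60.6 to 66.0%). The end of larger loss was drawn in by a median of 316 bp at 6 h and 304 bp at 30 h, and the other end by 47.0 and 36.5 bp. At 6 h the other end stayed within 50 bp of its DMSO position in 48.7% of narrowed regions, and at 30 h in 54.5%. Neither end was favoured, with the left losing more in 50.2% at 6 h (47.4 to 53.0%) and 49.4% at 30 h (46.6 to 52.2%). The larger loss fell on the end farther from the DMSO main summit in 88.3% at 6 h (86.3 to 90%) and 88.4% at 30 h (86.5 to 90.1%). Among 2748 matched regions narrowed less, with ratios between 0.7 and 0.9 at both times and chosen as a class after the data were seen, the loss was at 1 end about as often, 61.8% (60.0 to 63.6%) and 64.2% (62.3 to 65.9%). In those regions it fell on the farther end less often, in 65.9% at each time (64.1 to 67.7%). While the main summit stays inside, a large loss has more room on the farther end and a small one has room on either. The width limits of both classes therefore bear on this difference.

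**Figure D3:**
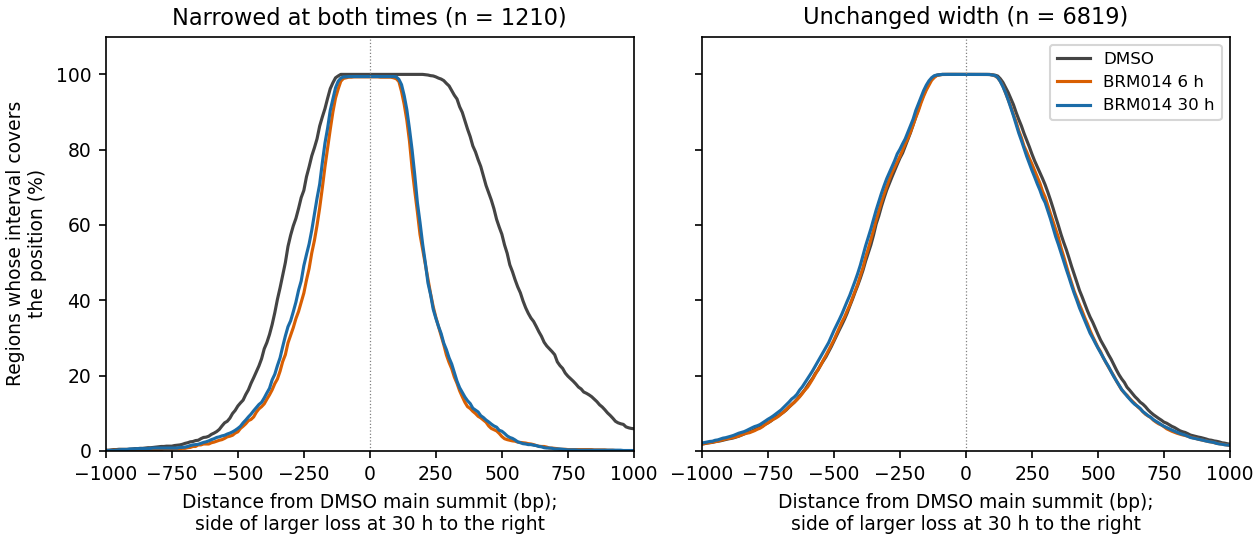
Share of regions whose called interval covers each distance from the DMSO main summit, for narrowed (left) and unchanged regions (right), with the side of larger loss at 30 h turned to the right. At 400 bp on that side, 79.4% of narrowed regions were covered in DMSO, 9.92% at 6 h and 10.8% at 30 h. Among unchanged regions the shares were 49.0%, 44.6% and 43.9%. Each region was turned by its own loss, so the DMSO difference between sides and between classes is tied to that turning.

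At 200 bp from the main summit on the side of larger loss, 100% of narrowed regions were covered in DMSO, 53.5% at 6 h and 54.9% at 30 h. On the other side 82.9% were covered in DMSO at that distance, 59.9% at 6 h and 67.1% at 30 h. Each region was turned by its own larger loss at 30 h, which in narrowed regions fell on the farther end in 88.4%. The differences between the sides, also in DMSO, are therefore tied to that turning. In DMSO the longer arm, from the main summit to the farther edge, took 63.1% of the width (62.5 to 63.8%) in narrowed and 61.5% (61.2 to 61.8%) in unchanged regions. Before treatment the narrowed regions were therefore only slightly more lopsided than regions that kept their width. In regions narrowed less at both times the longer arm took 58.9% (58.6 to 59.4%).

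Most narrowed regions held several summits in DMSO. They were 951 of 1210, or 78.6% (76.2 to 80.8%), against 63.2% of all matched regions (62.6 to 63.9%). In regions narrowed less at both times the share was 59.2% (57.4 to 61.0%), below that of all matched regions. Among unchanged regions it was 70.2% (69.1 to 71.3%), and 68.8% when these were weighted to the same deciles of DMSO -log10 q. Among regions of at least the median DMSO width the shares in narrowed and unchanged regions were 88.4% and 87.3%, so the difference in summit number moved with width. By summit number, 3.22% of matched regions with 1 summit were narrowed (2.86 to 3.63%), 6.84% of those with 2 (6.30 to 7.42%), 6.88% of those with 3 (6.14 to 7.71%) and 6.96% of those with at least 4 (5.95 to 8.14%). The step lay between a single summit and 2, and the intervals from 2 summits upward overlap. Of the 951 regions with several summits, 92.1% had fewer at 6 h and 92.5% at 30 h, compared with 15.6% and 13.2% of such unchanged regions and 38.3% and 29.8% of all such matched regions. Of the 841 such regions narrowed at 6 h only, with a ratio of at least 0.9 at 30 h, 87.9% had fewer at 6 h (85.5 to 89.9%). Treated regions had a single summit in 75.1% of the 1210 at 6 h (909) and 72.1% at 30 h (872), up from 21.4% in DMSO (259). Over all matched regions the single-summit share was 36.8% in DMSO, 41.3% at 6 h and 38.3% at 30 h. In regions narrowed at 6 h only it went from 22.8% in DMSO to 68.3% at 6 h (65.4 to 71.0%).

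The summits that lay in the trimmed bases were the weaker ones, as they were over all matched regions. Narrowed regions held 1576 DMSO summits besides the main ones, and 75.4% of these lay outside the 6 h region (73.2 to 77.4%) and 72.8% outside the 30 h region (70.5 to 74.9%). Those outside at 6 h had a median pileup of 18.6% of the highest in their region (18 to 19.6%) and lay 448 bp from the main summit. Those still inside had 36.2% (32.9 to 39.8%) and lay 296 bp away. At 30 h the values were 18.7% and 455 bp outside, and 33.3% and 303 bp inside. Other classes showed the same order: over all matched regions the pileups at 6 h were 17.8% outside and 38.0% inside. In regions narrowed at 6 h only they were 23.5% and 40.2%, with 70.3% of the summits besides the main ones outside at 6 h. In regions narrowed less at both times they were 14.3% and 38.3%, with 25.2% outside. In the 421 narrowed regions with at least 3 DMSO summits, the weakest secondary summit was outside at 6 h in 83.6% (79.8 to 86.8%) and the strongest in 49.6% (44.9 to 54.4%). At 30 h these were 79.6% and 46.1%.

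Because depth differed between the lists, secondary summits were compared within ranges of DMSO pileup, leaving out those below 32. Where the DMSO pileup was at least 32 and below 64, for which 20.2 to 40.3 was expected at 6 h and 25.8 to 51.7 at 30 h, 80.1% of the secondary summits of narrowed regions were outside at 6 h and 77.5% at 30 h. For comparison, 95% of all called regions had a pileup of at least 31.0 at 6 h and 34.0 at 30 h. Between 64 and 128 the shares outside were 67.8% (62.8 to 72.4%) and 65.6% (60.5 to 70.3%). At 128 or more, where at least 80.6 was expected at 6 h and 103 at 30 h, they were 37.3% (53 of 142; 29.8 to 45.5%) and 35.9% (51 of 142; 28.5 to 44.1%). In unchanged regions none of 2799 such summits was outside at either time, for which a limit of 3 counts allows a share of up to 0.107% and the Wilson interval one of up to 0.137%. Unchanged width, by which those regions were chosen, leaves little room for a summit outside. Narrowed regions were chosen for lost width, which itself can place summits outside. The highest range has no upper limit, so pileups within it were not matched. The part of depth in these shares was not tested.

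**Figure D4:**
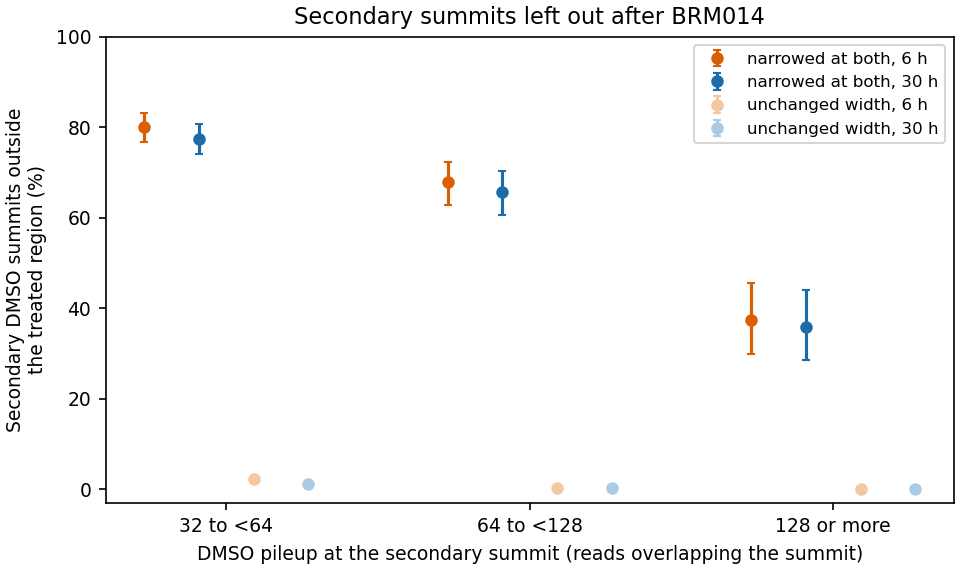
Secondary DMSO summits that lay outside the treated region (y axis, percent with 95% Wilson intervals), by their DMSO pileup (x axis), for narrowed regions (dark) and unchanged regions (light) at 6 h and 30 h. Summits with a DMSO pileup below 32 are not shown. In the ranges shown, the share in narrowed regions goes from 80.1% to 37.3% at 6 h with rising pileup. In unchanged regions it is at most 2.16% in these ranges.

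At the median, the main summits of narrowed regions had pileups below those expected under the depth scale used here, which is an assumption. Their median pileup was 195 in DMSO, 64 at 6 h and 108 at 30 h, with quartiles of 125 and 302, 45 and 102, and 70 and 167. The highest pileup found in the treated region was 59.1% of that expected at 6 h (56.4 to 62.3%) and 77.2% at 30 h (74.7 to 81.1%). Over all matched regions the medians were 85.4% (84.7 to 86.0%) and 99.9%. Unchanged regions stood at 93.4% (92.3 to 94.5%) and 104% (103 to 105%), or 94.8% and 106% when weighted to the DMSO pileups of the narrowed regions. The part of depth in this gap was not tested. Pileups below the expected were found in 82.1% of narrowed regions at 6 h and 70.8% at 30 h, against 57.8% and 42.7% of unchanged regions and 65.0% and 50.1% of all matched regions. In the regions narrowed less at both times the shares were 75.4% and 63.2%, and the median pileup stood at 68.9% (67.1 to 71.2%) and 88.6% (87.2 to 90.3%) of that expected. The gap was larger among strong than among weak regions. At a DMSO pileup of 256 to 362 narrowed regions stood at 41.7% and 63.7% and unchanged regions at 89.7% and 102%. At 64 to 90.5 they stood at 88.7% and 101%, against 108% and 125%. Matched regions had to be called at both times, which leaves weak regions less room to fall. From a DMSO pileup of 64, 40.3 was expected at 6 h, where 95% of all called regions had at least 31.0. The contrast between strong and weak regions is therefore tied to the choice of regions.

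Regions trimmed from both ends had the lower main summits. At 6 h the 479 narrowed regions with under 80% of the loss at 1 end stood at 49.2% of the expected pileup (45.4 to 52.2%), and the 731 trimmed at 1 end at 68.5% (64.6 to 72.1%). At 30 h the corresponding values were 64.3% (60.2 to 68.3%, 444 regions) and 86.0% (82.5 to 88.8%, 766 regions). Their median DMSO pileups were 196 (183 to 216) and 194 (184 to 211) for the split at 6 h. The split was chosen after the data were seen. Several DMSO summits were present in 69.9% of those trimmed at both ends at 6 h (65.7 to 73.9%) and in 84.3% of those trimmed at 1 end (81.5 to 86.7%). The 259 narrowed regions with a single DMSO summit were trimmed at 1 end in 44.4% at 6 h (38.5 to 50.5%) and 42.9% at 30 h, and stood at 52.6% (47.6 to 56.6%) and 65.8% (58.2 to 73.6%) of the expected pileup. Their median width was 657 bp in DMSO, 383 bp at 6 h and 400 bp at 30 h.

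**Figure D5:**
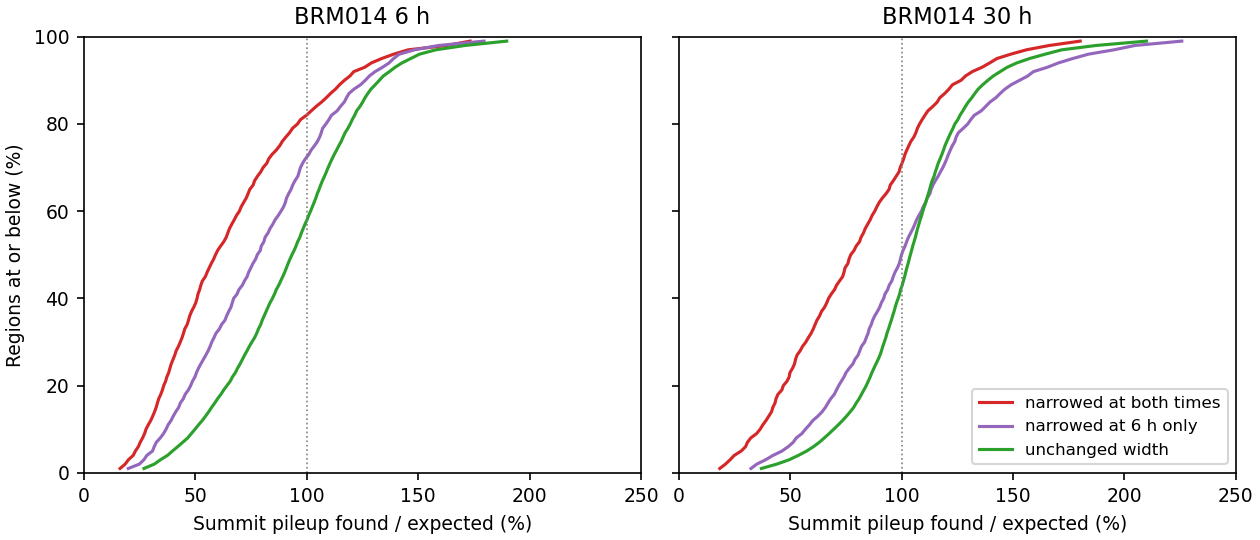
Cumulative share of regions (y axis) by the summit pileup found as a percentage of that expected from DMSO at the depth of the list (x axis), at 6 h (left) and 30 h (right). The medians of narrowed regions are 59.1% and 77.2%, of regions narrowed at 6 h only 77.8% and 100%, and of unchanged regions 93.4% and 104%; the highest percentile of each class is left off.

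Next are the 5 narrowed regions whose pileup was lowest against that expected, taking the higher of both times. The region at chr4:133434877-133435639 had a DMSO pileup of 414, then 30 at 6 h and 38 at 30 h, which is 11.5% and 11.4% of that expected, and its width went from 763 bp to 513 and 525 bp. After the chromosome 9 region already described came chr16:84518374-84519244, with pileups of 381, 39 and 49. On chromosome 3 the region from 148580900 to 148581842 had pileups of 505, 41 and 68, and on chromosome 13 that from 90938677 to 90939497 had 445, 47 and 59. All 5 had DMSO pileups above the upper quartile of narrowed regions, 302. Narrowed regions had to be called at both times, with lowest pileups of 22 at 6 h and 25 at 30 h. Such low percentages therefore need a high DMSO pileup.

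The 5 most narrowed regions were all over 1000 bp wide in DMSO. As no matched region was narrower than 171 bp at 6 h or 173 bp at 30 h, the narrowest DMSO regions could not reach such ratios. The smallest larger ratio belonged to chr11:75006355-75007612, which went from 1258 bp and 4 summits to 266 bp at 6 h and 270 bp at 30 h, each with 1 summit. Exactly 1000 bp were trimmed from its right end at both times, its left end moved out by 8 and 12 bp, and its main summit stood at 92.9% and 94.4% of the expected pileup. Of its summits, with DMSO pileups of 147, 73, 145 and 39 from left to right, only the first stayed inside, although the third was nearly as high. Next were chr10:10020683-10021885, from 1203 bp to 298 and 342 bp, and chr11:100830500-100831602, from 1103 bp to 286 and 317 bp. The region at chr7:97470988-97472209 went from 1222 bp to 363 and 294 bp. The fifth, at chr10:80409888-80411720, went from 1833 bp and 5 summits to 509 and 553 bp with 2 summits each.

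Among regions reduced to a single summit at both times, those with the most summits in DMSO had 4. They were led by the chromosome 11 region from 43494931 described above. The next, at chr18:81437632-81438934, was 1303 bp wide, then 536 bp at 6 h and 482 bp at 30 h, and its pileup went from 354 to 72 and then 31, 32.3% and 10.8% of the expected. On chromosome 1 the region from 152094739 to 152095675 went from 937 bp to 322 and 537 bp, and that from 36124862 to 36126022 from 1161 bp to 477 and 684 bp. The region at chr3:18523499-18524674 went from 1176 bp to 540 and 566 bp, with its main summit at 67.0% at 6 h and 129% at 30 h.

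The 6 h and 30 h lists could also be set against each other directly. Within narrowed regions the 2 treated intervals shared a median of 88.9% of their union (87.9 to 89.8%), against 94.8% in unchanged regions and 88.2% in all matched regions. The 30 h interval was the wider in 61.2% (58.5 to 63.9%) and the 6 h interval in 37.4%, with a median difference of 13.0 bp (10.0 to 17.0). Over all matched regions the 30 h interval was wider in 64.1% (63.4 to 64.7%), so the narrowed regions did not stand above that background. The pileup, scaled for depth, was higher at 30 h than at 6 h in 71.6% of narrowed regions (69.0 to 74.0%) and in 70.4% of all matched regions (69.8 to 71.0%).

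A class of 1090 matched regions was narrowed to the same limit at 6 h but had at least 0.9 times the DMSO width at 30 h. It gives the nearest comparison at 6 h. Its median DMSO width was 830 bp, against 878 bp, and 77.2% held several DMSO summits (74.6 to 79.6%), against 78.6%. At 6 h its main summits stood at 77.8% of the expected pileup (75 to 80.8%), above the 59.1% of regions narrowed at both times. Its loss at 6 h was at 1 end in 71.0% (68.2 to 73.6%), above 60.4%. Regions that were still narrow at 30 h thus had the lower main summits at 6 h, and the more even loss. They were also the more narrowed at 6 h, with a median ratio of 0.571 (0.564 to 0.577) against 0.617 (0.608 to 0.623). Their median DMSO pileup was 195 (185 to 208), against 174 (162 to 185). The part of these differences in the lower summits and the more even loss was not tested.

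Position set the narrowed regions apart little. They were found on all 20 chromosomes listed, from 3.84% of matched regions on the X chromosome (2.50 to 5.85%) to 6.31% on chromosome 16 (4.78 to 8.29%), and the interval of each of the 20 shares held the 5.53% of all matched regions. The nearest DMSO region was missing at 6 h for 42.5% of narrowed regions (39.7 to 45.3%) and for 41.0% of unchanged regions (39.9 to 42.2%), and at 30 h for 25.2% (22.8 to 27.7%) and 23.3% (22.3 to 24.4%). It was itself a narrowed region for 2.40% (1.67 to 3.42%) of narrowed and 2.86% (2.49 to 3.28%) of unchanged regions. The median gap to it was 7039 bp (6493 to 7602) for narrowed and 7931 bp (7619 to 8311) for unchanged regions. A neighbour within 10 kb was present for 62.4% of narrowed (59.6 to 65.1%) and 56.6% of unchanged regions (55.4 to 57.7%). The intervals overlapped for the state of the neighbour and did not for its distance.

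Of 2147 windows of 1 Mb with a matched region, 844 held a narrowed region and 197 held 2. Over all matched regions 5.53% were narrowed. The windows and runs below are the extremes, and clustering was not tested. The most in a window were 5, at chr10:80000001-81000000, of 52 matched regions. Among the 15 windows with 4, the smallest number of matched regions was 14, at chr2:102000001-103000000, followed by 15 at chr7:120000001-121000000, 16 at chr2:136000001-137000000 and 19 on chromosome 7, both from 105000001 to 106000000 and from 150000001 to 151000000. Runs of 3 neighbouring DMSO regions that were all narrowed occurred 3 times, at chr11:6074639-6162376, chr4:46656037-47063859 and chr7:150800129-150818062. The last spans 17.9 kb, within the chromosome 7 window from 150000001 named above. Its regions went from 1163 bp to 791 and 551 bp, from 1037 bp to 562 and 501 bp, and from 771 bp to 477 and 419 bp.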

How the data were processed

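ATAC-seq was made from 6 samples in 3 groups. The authors deposited 1 peak list per group that pools both replicates, so nothing could be tested between groups. The submitters' processing notes name MACS2 2.1.2 and the mouse build mm9. Aligner, read filters and caller options are not given in the sources used here. An entry of the deposited lists holds an interval, the authors' score (540 to 1000), a fold enrichment over background (a ratio), a -log10 p, a -log10 q and a summit offset. Fold enrichment and -log10 q are the authors' own values and describe peaks within a list. The number of reads per library is not given in the lists.

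Overlapping entries (1 bp or more) were merged, and the entry of highest -log10 p gave a region its main summit. Pileup and background were solved from fold enrichment and -log10 p under the caller's default formulas, an assumption; 100% of entries matched within 0.001. Depth was scaled by the lowest background of each list (3.37 in DMSO, 2.12 at 6 h, 2.72 at 30 h), also an assumption. Scripts used Python 3.11.15, numpy 2.4.6, pandas 2.3.3, scipy 1.17.1 and matplotlib 3.10.9, and were tested on simulated data.

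Regions were named by rule: the 10 of highest DMSO -log10 q, the 5 most narrowed, 3 on each side of the limit, the 5 lowest and 5 highest in pileup against that expected, the 5 with most summits reduced to 1, and runs of 3. Members, classes and rules were chosen with earlier results of these data known. Alternatives changed the width limit, the overlap, the score, the width ratios (divided by their median), the smallest width, the share that counts as loss at 1 end and the weighting. How often both times were trimmed on the same side is not reported, because both comparisons share the DMSO list.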

Additional observations from a re-analysis of the deposited data

How the results depend on the processing

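No paired analysis was possible because the replicates of a group were pooled into 1 list, and for the same reason no replicate could be left out in turn. No sequence was read, as no mm9 genome was at hand. Over 15 results, 61 alternative values stayed within their interval (or, for the count, within 1.5 times) and 36 moved.

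With a limit of 0.6, narrowed regions numbered 506, and with 0.8, 2729, as the limit itself sets; only entries of score 1000 left 545. The share with several DMSO summits was 87.7% at 0.6, 70.0% at 0.8, 90.8% at score 1000, 83.0% with width ratios divided by their median over matched regions and 88.4% among regions of at least median width. For unchanged regions it was 75.1% at score 1000, 68.9% with divided ratios, 87.3% among wide regions and 68.8% weighted, so among wide regions the gap nearly closed. Loss at 1 end was 56.9% at 6 h at 0.6, 70.1% and 73.0% at score 1000 (6 h and 30 h) and 43.5% and 48.4% when 90% had to lie at 1 end. The main summit was kept at 6 h in 98.6% at 0.6. Secondary summits outside were 84.9% and 83.6% at 0.6, 63.0% and 59.3% at 0.8, 79.7% and 76.5% with divided ratios, and 70.4% at 30 h at score 1000. Pileup found against expected in narrowed regions was 74.5% and 91.2% at score 1000. In unchanged regions it was 96.9% at 6 h at score 1000, 88.6% and 101% with divided ratios, 95.2% and 103% among wide regions, and 94.8% and 106% weighted. The nearest region was missing at 6 h for 51.7% at score 1000, and at 30 h for 22.7% at 0.6. Beyond the limits themselves, the cause was not tested. A closed flank and one under the cutoff of a shallower list cannot be told apart with these lists.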

Other observations

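In 4 narrowed regions, singled out after their values were seen, the 6 h and 30 h intervals did not overlap at all. In each the 6 h interval lay on the right and the 30 h interval on the left. They were at chr11:118952225-118953293, chr17:69844934-69845784, chr19:24781566-24782773 and chr2:28554778-28555840. Each had 2 DMSO summits, with pileups, from left to right and in the same order of regions, of 133 and 72, 60 and 48, 100 and 128, and 82 and 81.

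Some narrowed regions had a main summit above the expected pileup. Most did not: 82.1% were below it at 6 h and 70.8% at 30 h, against 65.0% and 50.1% of all matched regions. The region at chr13:23390215-23392121 went from 1907 bp and 5 summits to 1037 bp at 6 h and 1193 bp at 30 h, while its pileup went from 143 to 318 and 243, 353% and 211% of that expected. On chromosome 4 the region from 128744853 to 128745842 had pileups of 50, 79 and 87, 251% and 216%. The others of the 5 highest were at chr9:47495559-47496699 (194% and 195%), chr11:29245572-29246692 (205% and 173%) and chr11:55311225-55311758 (169% and 171%). Their DMSO pileups were 59, 45 and 47. All 5 lay below the median DMSO pileup of narrowed regions, 195. That pileup is the divisor, so low values of it favour high percentages. At a DMSO pileup of 45.3 to 64, narrowed regions stood at 117% and 128%, and unchanged regions at 132% and 145%.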
